A study of Mus musculus with 4 samples.

Results

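Genes of tau, the neuronal microtubule and the kinases of tau were followed in the hippocampus of a mouse model of cerebral amyloid. The 10 genes are Mapt, Map2, Map1b, Tubb3, Stmn1, Stmn2, Stmn3, Cdk5, Cdk5r1 and Gsk3b. A probe set is a set of short oligonucleotides that together report 1 transcript. It was taken as a member where the platform annotation paired it with 1 of these symbols and no other. This gave 16 probe sets for 9 of the 10 genes, out of 12422 probe sets, and of 8251 genes with such a probe set, on the array. For Gsk3b, which encodes the tau kinase glycogen synthase kinase-3 beta, no probe set was paired with that symbol alone, and its level was not analysed here.

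RNA of the left hippocampus was measured on 4 arrays, each from a male mouse aged 12 months. The 2 control arrays came from nontransgenic C57B6/SJL mice, and the 2 APPSw arrays from Tg2576 mice, which overexpress amyloid precursor protein carrying the Swedish mutation. As background, the Tg2576 transgene is a human cDNA under a hamster prion protein promoter, and these mice deposit amyloid plaques with age. The labels do not say whether the mice were littermates or that each array had a different animal, so the p-values below rest on a spread between arrays that may be in part technical.

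Tau, encoded by Mapt, binds along axonal microtubules and stabilises them. In Alzheimer's disease it is heavily phosphorylated, leaves the microtubule and assembles into neurofibrillary tangles. Map2 and Map1b are structural partners of the microtubule in dendrites and growing axons, Tubb3 is a tubulin of neurons, and the stathmins bind free tubulin and favour disassembly. Glycogen synthase kinase-3 and Cdk5 with its activator p35, the product of Cdk5r1, are the best known tau kinases. The arrays measured transcripts, so neither the phosphorylation nor the amount of these proteins was measured.

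Signals are linear, from the authors' MAS 5.0 analysis scaled to 2500. Median signals were 926 to 988 on control arrays and 1013 to 1033 on APPSw arrays. Probe sets with a mean log2 signal under the 40th percentile, a geometric mean of 565, were left out of the test, which kept 7453 probe sets. Of the members, 13 probe sets of 8 genes were kept, and Map1b was left out. In dissected tissue, fewer cells of a type and less RNA per cell cannot be told apart. APPSw 1 stood apart in its signal of choroid plexus epithelium, a tissue beside the hippocampus. The summed signal of 9 markers was 139099 on that array, 19372 on APPSw 2, and 16576 to 26073 on the controls. The part of this tissue in the values below was not tested, and values without APPSw 1 are given where a sign rests on it.

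Differences are in log2, APPSw minus control, with the SE of the limma fit. Adjusted p is by Benjamini-Hochberg over all 7453 probe sets, with a threshold of 0.05.

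None of the members rose or fell by this test. By limma 0 of the 13 kept member probe sets passed, with adjusted p between 0.609 and 0.997, and over all kept probe sets 0 of 7453 passed (0% called). At an unadjusted p under 0.05 there was 1 member probe set, of Stmn3, or 7.69% of 13, against 8.05% of all kept probe sets. Differences lay above 0 for 7 member probe sets and below 0 for 6. For 10 of the 13, the arrays of at least 1 group stood further apart than the group means did. With 2 arrays a group, an exact two-sided permutation test of a single probe set cannot give a p below 0.333.

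**Figure D1:**
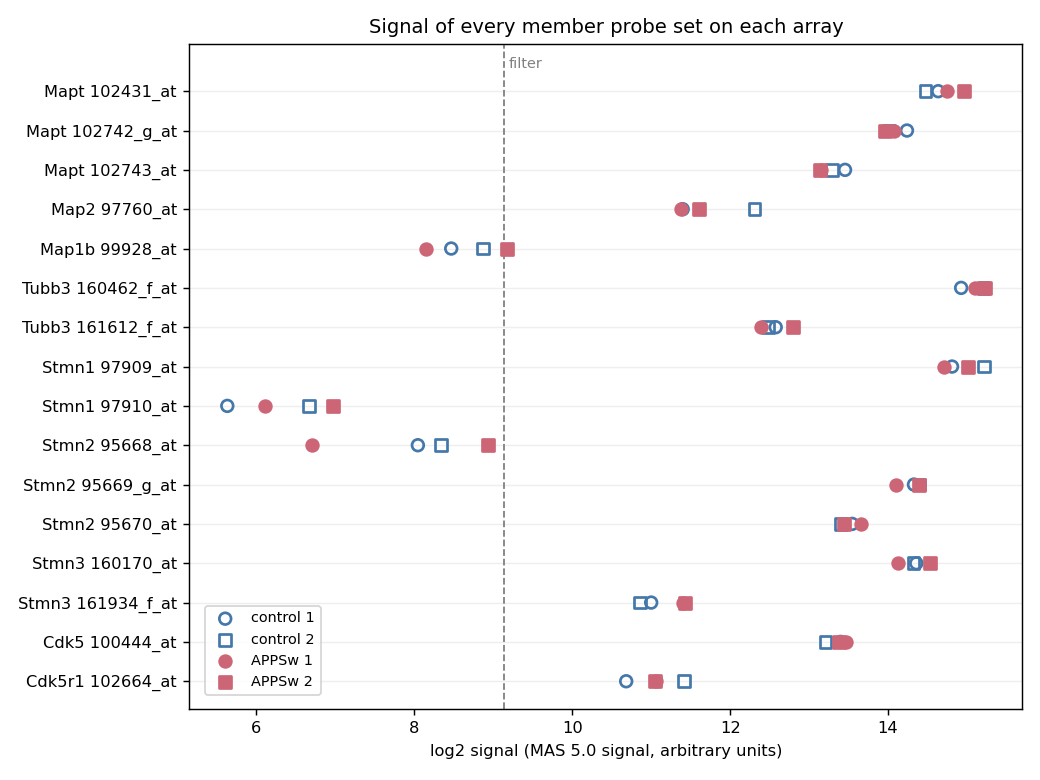
Log2 signal (horizontal axis) of each of the 16 member probe sets (rows) on the 2 control arrays (open blue) and the 2 APPSw arrays (filled red), with the filter at a geometric mean signal of 565 as a dashed line. Groups overlap in most rows, and 3 probe sets (of Map1b, Stmn1 and Stmn2) lie left of the filter by their mean.

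Tau itself was read by 3 probe sets, and they did not give a common direction. Probe set 102431_at gave signals of 25428 and 22758 on the control arrays, against 27496 and 31773 on the APPSw arrays. Both APPSw arrays lay above both controls, APPSw 2 by the wider margin. In log2, APPSw minus control was 0.30 (SE 0.18, adjusted p = 0.656), a 1.23-fold higher level with a 95% interval from 0.897-fold to 1.68-fold. The difference was 0.19 without APPSw 2.

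Probe set 102743_at of the same gene went the other way. Its signals were 11225 and 9989 on the control arrays, against 9108 and 8976 on the APPSw arrays. Both APPSw arrays lay below both controls, and the APPSw arrays were close together. The fitted difference was -0.23 (SE 0.17, adjusted p = 0.718) in log2, with a 95% interval from -0.66 to 0.20, and it was -0.14 without control 1.

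The remaining Mapt probe set, 102742_g_at, was designed on the same GenBank entry as 102431_at. It had 19329 and 16520 on the control arrays, against 17177 and 15971 on the APPSw arrays. Control 2 lay between the APPSw arrays, so the groups overlapped. The log2 difference was -0.11 (SE 0.18, adjusted p = 0.876), and it was 0.0038 without control 1. In the manufacturer's naming the suffix g marks probes that are shared with another probe set, so these readings of tau may not be independent.

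Map2 encodes the microtubule-associated protein of dendrites and cell bodies. Its probe set gave signals of 2699 and 5065 on the control arrays, against 2654 and 3104 on the APPSw arrays. Control 2 stood apart from the other arrays, and the controls differed by 1.88-fold against 1.17-fold between the APPSw arrays. APPSw differed from control by -0.37 (SE 0.32, adjusted p = 0.758) on the log2 scale, and the difference became 0.09 without control 2, so its sign rested on that array.

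Map1b, a microtubule-associated protein of growing axons, had its only probe set under the filter. Signals were 354 and 467 on the control arrays, against 283 and 576 on the APPSw arrays. The APPSw arrays lay on either side of both controls and differed by 2.03-fold. Fitted with no filter, the log2 difference was -0.01 (SE 0.44, adjusted p = 0.998).

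Tubb3, the class III beta-tubulin used as a marker of neurons, was read by a pair of probe sets. Both carry the suffix f, which the manufacturer gives to probe sets whose probes can match a family of similar sequences, so related tubulins may add to their signal. Probe set 160462_f_at had 31103 and 37868 on the control arrays, against 35014 and 38205 on the APPSw arrays. Control 1 was the lowest of the 4 arrays, and the groups overlapped. In log2, APPSw minus control was 0.09 (SE 0.19, adjusted p = 0.906), and -0.05 without control 1.

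Probe set 161612_f_at of Tubb3 gave signals of 6108 and 5717 on the control arrays, against 5387 and 7085 on the APPSw arrays. The APPSw arrays were the lowest and the highest of the 4. The fitted difference was 0.06 (SE 0.20, adjusted p = 0.941) in log2, and -0.13 without APPSw 2. By either probe set, the 95% interval reached no further than 1.49-fold higher or 1.36-fold lower in APPSw mice.

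The stathmins followed, of which Stmn1, a regulator of microtubule turnover found in dividing cells and neurons, had 1 bright and 1 dim probe set. The bright one, 97909_at, gave 28713 and 38044 on the control arrays, against 26705 and 33123 on the APPSw arrays. In each group array 2 was the higher, and the groups overlapped. The log2 difference was -0.15 (SE 0.22, adjusted p = 0.860), and it was 0.05 without control 2 and 0.0031 without APPSw 1.

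The dim Stmn1 probe set, 97910_at, lay under the filter. Its signals were 49.6 and 102 on the control arrays, against 68.9 and 125 on the APPSw arrays. These values were again higher on array 2 of each group. No difference is read from it at that signal.

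Stmn2, also called SCG10, is the stathmin of growth cones and long axons. Its probe set 95669_g_at had 20560 and 21596 on the control arrays, against 17561 and 21503 on the APPSw arrays. APPSw 1 lay below the other arrays, while APPSw 2 lay within the range of the controls. APPSw differed from control by -0.12 (SE 0.19, adjusted p = 0.871) on the log2 scale.

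By probe set 95670_at, Stmn2 had 11946 and 10813 on the control arrays, against 12892 and 11080 on the APPSw arrays. Here APPSw 1 was the highest array. In log2, APPSw minus control was 0.07 (SE 0.18, adjusted p = 0.921). Without APPSw 1 the signs of both probe sets turned, to 0.03 for 95669_g_at and -0.04 for 95670_at.

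A further Stmn2 probe set, 95668_at, shares its GenBank entry with 95669_g_at and lay under the filter. It had 264 and 323 on the control arrays, against 104 and 488 on the APPSw arrays. The APPSw arrays differed by 4.69-fold, the widest gap within a group among the members.

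Stmn3, the stathmin SCLIP of mature neurons, held the member probe set with the smallest p. Probe set 161934_f_at gave signals of 2048 and 1861 on the control arrays, against 2713 and 2747 on the APPSw arrays. Both APPSw arrays lay above both controls, and arrays of a group were within 1.10-fold of each other. The fitted difference was 0.48 (SE 0.17, unadjusted p = 0.031, adjusted p = 0.609 by limma) in log2, a 1.40-fold higher level with a 95% interval from 1.04-fold to 1.87-fold. It ran from 0.41 to 0.55 with an array left out. This probe set also carries the suffix f, so similar sequences may add to its signal.

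The brighter Stmn3 probe set, 160170_at, did not show this difference. It had 20989 and 20469 on the control arrays, against 17946 and 23617 on the APPSw arrays. The APPSw arrays stood on either side of both controls. The log2 difference was -0.0098 (SE 0.20, adjusted p = 0.996), and its sign turned to 0.19 without APPSw 1, to 0.0083 without control 1 and to 0.016 after quantile normalization.

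**Figure D2:**
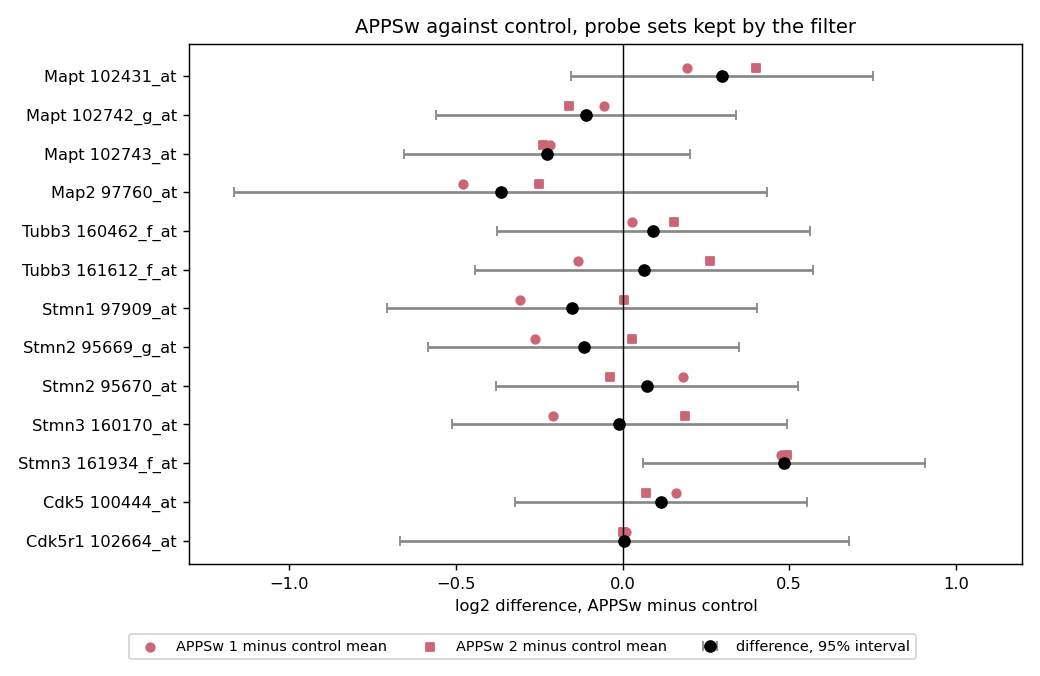
Log2 difference, APPSw minus control (horizontal axis), for the 13 kept member probe sets (rows), as black points with 95% intervals of the limma fit. Red points give APPSw 1 (circle) and APPSw 2 (square) minus the control mean. Only the interval of Stmn3 161934_f_at, unadjusted for the number of probe sets, lies clear of 0.

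Of the kinase genes, Cdk5 encodes a neuronal member of the cyclin-dependent kinase family that phosphorylates tau. Its signals were 10788 and 9467 on the control arrays, against 11301 and 10614 on the APPSw arrays. Control 1 lay between the APPSw arrays, and control 2 was the lowest. APPSw differed from control by 0.12 (SE 0.18, adjusted p = 0.865) on the log2 scale, and the 95% interval ran from 0.80-fold to 1.47-fold. The difference was 0.022 without control 2, 0.071 without APPSw 1 and 0.21 without control 1.

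Cdk5r1 encodes p35, which activates Cdk5 and can be cleaved by calpain to the longer-lived fragment p25. Its signals were 1644 and 2726 on the control arrays, against 2132 and 2118 on the APPSw arrays. The APPSw arrays were nearly equal and lay between the controls, which differed by 1.66-fold. In log2, APPSw minus control was 0.0052 (SE 0.27, adjusted p = 0.997), with a 95% interval from -0.67 to 0.68, and it had no stable sign. It was -0.36 without control 1, -0.03 after quantile normalization and -0.018 after median centring.

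Groups that do not overlap are common on the whole array, and the members were read against that. Both APPSw arrays lay above both controls for 2 member probe sets (Mapt 102431_at and Stmn3 161934_f_at), where 22.2% of all kept probe sets did, and below both for 1 (Mapt 102743_at), where 19% did. These 3 of 13 are 23.1%, against 41.2% of all kept probe sets. With each gene represented by its brightest kept probe set, the median log2 difference over the 8 genes was -0.0023, with 4 above and 4 below 0, and over all 5670 genes it was 0.0088. The median of the 8 genes moved both ways with an array left out. It was 0.07 without control 2 and 0.05 without APPSw 1, against -0.101 without control 1 and -0.099 without APPSw 2.

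The intervals, unadjusted for the number of probe sets, show the precision of these arrays. The end of the 95% interval farther from 0 lay at between 1.43-fold and 2.24-fold over the 13 kept probe sets, the widest being that of Map2. A p that misses the threshold does not show that levels were equal.

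Because the tau and Stmn3 probe sets gave different directions, the log2 ratio of each pair of kept probe sets of a gene was fitted in the same way. This comparison was added after the values were seen. There were 1222 such pairs over 925 genes, and pairs of a gene share probe sets. By limma 0 pairs passed the adjusted threshold (0% called), and 122 (9.98%) had an unadjusted p under 0.05, of which 0 were of the 6 member pairs.

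For tau, the log2 ratio of 102431_at to 102743_at was 1.18 and 1.19 on the control arrays, against 1.59 and 1.82 on the APPSw arrays. The controls were nearly equal, and both APPSw arrays lay above them. With 102431_at higher and 102743_at lower on both APPSw arrays, this order had to follow. The difference of 0.53 (SE 0.24, adjusted p = 0.525) was exceeded in size by 21.8% of all pairs. It was 0.64 without APPSw 1 and 0.41 without APPSw 2. The other pairs that include 102742_g_at differed by 0.41 (SE 0.25, adjusted p = 0.598) and 0.12 (SE 0.23, adjusted p = 0.891). Where the probes lie on the tau isoforms was not analysed here.

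For Stmn3, the log2 ratio of 160170_at to 161934_f_at was 3.36 and 3.46 on the control arrays, against 2.73 and 3.10 on the APPSw arrays. Both APPSw arrays lay below both controls. The difference of -0.49 (SE 0.25, adjusted p = 0.572) was exceeded in size by 24.8% of all pairs. It was -0.30 without APPSw 1 and -0.68 without APPSw 2. As stated above, similar sequences may add to the signal of 161934_f_at. The ratio differed by -0.19 (SE 0.28, adjusted p = 0.864) for Stmn2 and by 0.03 (SE 0.27, adjusted p = 0.973) for Tubb3, with groups that overlapped. Without APPSw 1 these became 0.066 for Stmn2 and -0.107 for Tubb3, and without control 1 Tubb3 was -0.162. Groups were apart for 4 of the 6 member pairs, of which 3 share tau probe sets, against 42.8% of all pairs.

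**Figure D3:**
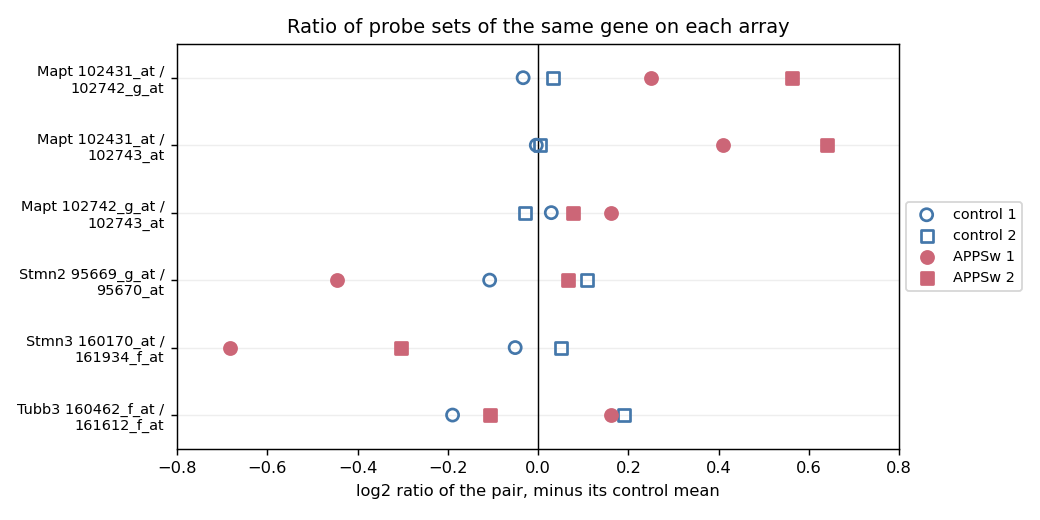
Log2 ratio of a pair of probe sets of the same gene on each array, minus the pair's control mean (horizontal axis), for the 6 member pairs (rows). For tau 102431_at over 102743_at the control arrays fall together near 0 and the APPSw arrays lie to the right, while for Tubb3 the groups overlap.

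The other genes of the pathway were read from lists of symbols, each gene by its brightest kept probe set. No gene of these 6 lists passed the adjusted threshold of the limma fit in either direction. The 3 genes of each list with the largest moderated statistic are named. Over all 5670 genes, 51.5% of differences lay above 0, 6.88% had an unadjusted p under 0.05 and 40.9% had groups apart, and the shares of each list are given beside these.

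Among tubulins and genes that fold or modify tubulin, 15 of 24 genes were kept, with a median log2 difference of -0.00047 and 7 (46.7%) above 0, a median that was 0.0077 without control 1 and 0.06 without APPSw 1. Tubg2, a gamma-tubulin of microtubule nucleation, had 2488 and 2493 on the control arrays, against 1757 and 1948 on the APPSw arrays. Both APPSw arrays were lower, with a difference of -0.43 (SE 0.17, adjusted p = 0.612). Its probe set carries the suffix f, as does that of Tubb6. The beta-tubulin Tubb6 differed by 0.35 (SE 0.17, adjusted p = 0.616), with groups apart. The beta-tubulin Tubb4b differed by -0.61 (SE 0.33, adjusted p = 0.630), with groups that overlapped. At an unadjusted p under 0.05 the list held 1 gene, or 6.67% of those kept, against 6.88% of all genes, and groups were apart for 40%.

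Of 30 other microtubule-associated and plus-end genes, 20 were kept, with a median of -0.02 and 9 (45%) above 0, a median that was 0.03 without APPSw 2. Nde1, which works with LIS1 and dynein, had 1757 and 1773 on the control arrays, against 1173 and 1226 on the APPSw arrays. The arrays of each group were close together and the groups apart. The difference was -0.56 (SE 0.17, adjusted p = 0.599), the 1 gene of the list (5%, against 6.88% of all genes) with an unadjusted p under 0.05. Map4, the relative of tau in non-neuronal cells, differed by -0.41 (SE 0.17, adjusted p = 0.612) by its brighter probe set and by 0.36 (SE 0.19, adjusted p = 0.622) by its other. Camsap1, which binds microtubule minus ends, differed by -0.30 (SE 0.17, adjusted p = 0.636). Groups were apart for 40% of the list, against 40.9% of all genes.

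Of 32 other tau kinases and activators, 23 were kept, with a median of -0.11 and 11 (47.8%) above 0, a median between -0.15 and -0.046 with an array left out. Capn1, a calpain of the family that cleaves p35, had 4422 and 4493 on the control arrays, against 3197 and 3142 on the APPSw arrays. Both APPSw arrays were lower, and the difference was -0.49 (SE 0.17, adjusted p = 0.603), the 1 gene of the list (4.35%, against 6.88% of all genes) with an unadjusted p under 0.05. Mapk14, the p38 alpha kinase, differed by -0.44 (SE 0.18, adjusted p = 0.612), with groups apart. Prkaca, a catalytic subunit of protein kinase A, differed by -0.49 (SE 0.22, adjusted p = 0.612), also with groups apart. Over the list, groups were apart for 43.5%, against 40.9% of all genes. Gsk3a, the relative of Gsk3b, is named here outside that choice, after its values were seen, since Gsk3b could not be read. It had 69272 and 68422 on the control arrays, against 71689 and 70547 on the APPSw arrays, a difference of 0.05 (SE 0.17, adjusted p = 0.949).

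The list of genes that oppose the kinases or clear tau held subunits of the phosphatases PP2A and calcineurin, and chaperones. Of 23 such genes 18 were kept, with a median of -0.14, 4 above 0 (22.2%, against 51.5% of all genes) and 14 below. Ppp2r5a, a regulatory subunit of PP2A, had 6583 and 6241 on the control arrays, against 4226 and 3869 on the APPSw arrays. Both APPSw arrays were lower, and the difference was -0.66 (SE 0.17, adjusted p = 0.599), the 1 gene of the list (5.56%, against 6.88%) with an unadjusted p under 0.05. Ppp3ca, a catalytic subunit of calcineurin, differed by -0.37 (SE 0.17, adjusted p = 0.612). Ppp2r2b, another PP2A regulatory subunit, differed by 0.37 (SE 0.21, adjusted p = 0.636). Groups were apart for 55.6% of the list, against 40.9% of all genes.

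Motors and their adaptors, which carry cargo along the microtubule, had 22 of 30 genes kept, a median of -0.08, 6 above 0 (27.3%, against 51.5% of all genes) and 16 below. Kif1a, the kinesin of synaptic vesicle precursors, had 6659 and 7159 on the control arrays, against 4633 and 3817 on the APPSw arrays. Both APPSw arrays were lower, and the difference was -0.72 (SE 0.19, adjusted p = 0.599), the 1 gene of the list (4.55%, against 6.88%) with an unadjusted p under 0.05. Dync1h1, the dynein heavy chain, differed by -0.41 (SE 0.17, adjusted p = 0.612). Mapk8ip1, a scaffold that links JNK to kinesin, differed by 0.45 (SE 0.20, adjusted p = 0.612) and by 0.15 by its other probe set. Groups were apart for 54.5% of the list, against 40.9% of all genes.

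Neurofilament and axon growth genes had 14 of 17 kept, a median of -0.17, 2 above 0 (14.3%, against 51.5% of all genes) and 12 below. None had an unadjusted p under 0.05, against 6.88% of all genes, and groups were apart for 57.1%, against 40.9%. The median was -0.104 without APPSw 2 and -0.117 without control 1. Marcksl1 and Marcks, actin-regulating substrates of protein kinase C, differed by -0.42 (SE 0.18, adjusted p = 0.612) and -0.47 (SE 0.25, adjusted p = 0.624). Nefm, the medium neurofilament chain, had 1816 and 2514 on the control arrays, against 1646 and 1630 on the APPSw arrays. Both APPSw arrays were lower, and the difference was -0.38 (SE 0.22, adjusted p = 0.629).

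**Figure D4:**
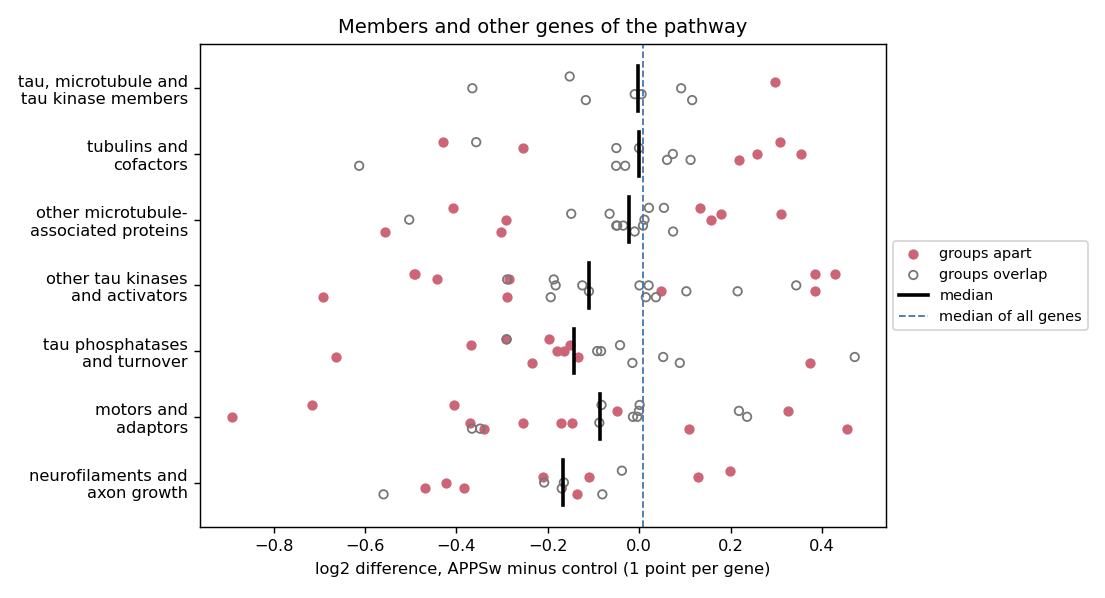
Log2 difference, APPSw minus control (horizontal axis), of each kept gene of the members and of the 6 other lists (rows), 1 point per gene, filled where the arrays of the groups did not overlap. Black bars are list medians, from -0.17 to -0.00047, beside the median of all genes at 0.0088 (dashed).

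The tissue was checked against markers, each gene by its brightest probe set. Of 13 measured markers of hippocampal principal neurons 12 lay above the filter, and Prox1, of dentate granule cells, lay under it. No marker was listed at 0. The summed signal of these 13 was 96271 to 104161 in controls and 74206 to 78734 in APPSw mice. That of 11 pan-neuronal markers was 256029 to 263595 and 240907 to 243945, so both neuronal sums were lower on the APPSw arrays. Such sums follow the brightest genes. By log2 difference, 3 of the 11 pan-neuronal markers lay above 0 (27.3%, against 51.5% of all genes) and 8 below. Groups were apart for 45.5% of them, against 40.9% of all genes, and 9.09% had an unadjusted p under 0.05 by limma, against 6.88%. Of the 12 hippocampal markers above the filter, 1 lay above 0 (8.33%, against 51.5% of all genes) and 11 below, with a median of -0.35. Groups were apart for 8 (66.7%, against 40.9% of all genes), each with APPSw lower. By limma 4 had an unadjusted p under 0.05 (33.3%, against 6.88%), each with APPSw lower, and 0 passed the adjusted threshold.

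Markers of other cell types and of the neighbouring neocortex were measured too. The 9 oligodendrocyte markers summed to 101134 to 108748 in controls and 80601 to 99700 in APPSw mice. Both APPSw arrays were lower, APPSw 2 by the wider margin. Of the 8 oligodendrocyte markers above the filter, 0 had a log2 difference above 0 (against 51.5% of all genes) and 8 lay below. Groups were apart for 4 of these (50%, against 40.9% of all genes), and 0 had an unadjusted p under 0.05 by limma. The 12 markers of newborn neurons and progenitors, of which 7 lay above the filter, summed to 18356 to 18382 in controls and 21099 to 21658 in APPSw mice. The 9 astrocyte markers had 110029 to 111425 and 107512 to 111975, and the 11 microglial markers 46235 to 51021 and 43987 to 47727. The 12 endothelial and mural markers had 15532 to 16623 and 16752 to 17613, and the 6 neocortical markers 16151 to 17227 and 22132 to 25383. Of the 5 neocortical markers above the filter, 5 had a log2 difference above 0 (100%, against 51.5% of all genes). Groups were apart for 2 of them, Fezf2 and Mef2c, or 40%, against 40.9% of all genes. The part of these cell types in the differences above was not tested.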

How the data were processed

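The authors deposited linear signal intensities. Per the labels these came from MAS 5.0, with each array scaled to 2500. Background settings and present calls were not used here. Of 12488 probe sets, 66 manufacturer's controls were left out. The platform annotation gives 10833 of the others 1 gene symbol, 396 several and 1193 none, and 10817 were found in RefSeq by gene identifier. No further normalization was applied. Log2 signals were fitted in R 4.3.3 by lmFit and eBayes of limma 3.58.1 (2 residual and 3.70 prior degrees of freedom, two-sided), and the fit was tested on simulated data. The number of arrays limits the precision. The members and lists were chosen with earlier results of these data known. All member probe sets are named, with up to 3 genes of each other pathway list, those with the largest absolute moderated statistic, and Gsk3a outside this rule. The alternatives were another filter, no filter, a floor or pseudocount of 250, quantile normalization, median centring, an intensity trend, averaging the probe sets of each gene, the replicate number as a block, and each array left out.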

Additional observations from a re-analysis of the deposited data

How the results depend on the processing

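Under the 12 alternatives run for each, 0 of 156 refitted values of the 13 kept member probe sets passed the adjusted threshold of limma (lowest adjusted p = 0.466), and 142 kept their sign. Differences of Mapt 102431_at, Mapt 102743_at, Stmn3 161934_f_at and Cdk5 kept their sign under each of these, with sizes that moved by over 1.5 times with an array left out for Cdk5 (0.022 without control 2, 0.071 without APPSw 1, 0.21 without control 1), Mapt 102431_at (0.19 without APPSw 2) and Mapt 102743_at (-0.14 without control 1). By quantile normalization Cdk5r1 became -0.032 and Stmn3 160170_at 0.016, and by median centring Cdk5r1 became -0.018. With an array left out, ranges were -0.36 to 0.37 for Cdk5r1, -0.82 to 0.089 for Map2, -0.22 to 0.0038 for Mapt 102742_g_at, -0.36 to 0.051 for Stmn1, -0.26 to 0.029 for Stmn2 95669_g_at, -0.037 to 0.18 for Stmn2 95670_at, -0.21 to 0.19 for Stmn3 160170_at, -0.050 to 0.23 for Tubb3 160462_f_at and -0.13 to 0.26 for Tubb3 161612_f_at. The members' median lay between -0.10 and 0.07, and 6 to 10 member probe sets had groups apart, where 66.1% to 74.9% of all probe sets did, since fewer arrays have to be apart. The median of the tubulin list ran from -0.0071 to 0.06 and that of other microtubule-associated genes from -0.09 to 0.03, while the other 4 lists stayed below 0, the neurofilament list at -0.104 without APPSw 2. Among pairs of probe sets, 2 passed without APPSw 1 and 0 without each other array, and no member pair did. The difference of the log2 ratio ran from -0.16 to 0.22 for Tubb3 and from -0.44 to 0.066 for Stmn2, and turned sign without APPSw 1 for both (-0.107 for Tubb3) and without control 1 for Tubb3. With the replicate number as a block, 0 member probe sets passed (lowest adjusted p = 0.667). Deviations of same-numbered arrays correlated at -0.020 over 7453 probe sets. This rests on a single difference per group, so it cannot show whether the numbers pair the arrays. The cause of these sign changes was not tested.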
